A study of Mus musculus with 6 samples.

Results

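The extracellular matrix genes examined were Fn1, Thbs1, Thbs2, Tnc, Tnn, Postn, Sparc, Vcan, Dcn and Lum, 10 in all, which encode secreted glycoproteins and proteoglycans. Every probe on the array that was named for 1 of these 10 genes and was not a control was taken, which gave 19 probes out of 61307 probes and 50090 gene names. All samples were mouse NIH3T3 fibroblasts carrying a retroviral insert selected with Geneticin and grown in DMEM with serum. The GFP group expressed GFP alone and was the control. The LT7 group overexpressed SIRT7 fused to GFP and kept the long spindle shape of fibroblasts, and the ST7 group overexpressed the same fusion and was made of small, closely packed cells. SIRT7 is a nucleolar, NAD-dependent deacylase of the sirtuin family. Both SIRT7 lines were taken from confluent cultures of SIRT7 cells and carried through isolation of single cells, so each is 1 clonal line, and the effect of SIRT7 and that of the clone cannot be told apart. Each of the 3 groups had 2 arrays, from different passages, so p-values measure the spread between passages of 1 line.

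Matrix glycoproteins are secreted by fibroblasts and give cells a surface to attach to, pull on and read. Fibronectin binds integrins and collagen and is assembled into fibrils by the cells themselves. Thrombospondins, tenascins, periostin and SPARC are matricellular proteins, which sit in the matrix and alter adhesion and growth factor signalling more than they bear load. Versican is a large chondroitin sulfate proteoglycan that binds hyaluronan, and decorin and lumican are small leucine-rich proteoglycans that coat collagen fibrils and limit their width.

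Each array probe is a 60-base oligonucleotide, and the sequences below show what was measured for the genes on which the results turn. The deposited files mark all 19 probes as unmapped, so no genome position is given for them. The 3 fibronectin probes read different stretches of the transcript.
Fn1 P100856: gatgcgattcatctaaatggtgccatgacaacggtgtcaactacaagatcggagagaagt
Fn1 P11817: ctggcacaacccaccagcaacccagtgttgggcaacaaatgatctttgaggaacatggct
Fn1 P299974: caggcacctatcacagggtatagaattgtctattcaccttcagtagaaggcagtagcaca
Both thrombospondin 1 probes below hold an identical run of 11 bases, shown in capitals, which starts at base 40 of the former and at base 36 of the latter.
Thbs1 P337086: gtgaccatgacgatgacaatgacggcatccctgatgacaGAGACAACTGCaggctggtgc
Thbs1 P337092: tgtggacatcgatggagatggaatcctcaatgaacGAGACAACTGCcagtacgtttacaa
The Thbs2 and Dcn probes are given for comparison with those of their relatives Thbs1 and Lum.
Thbs2 P461877: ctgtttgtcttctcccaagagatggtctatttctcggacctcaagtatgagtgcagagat
Dcn P334104: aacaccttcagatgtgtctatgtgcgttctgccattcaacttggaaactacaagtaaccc
For the 3 genes highest in LT7 by the fold rule described below, the first 30 bases of the probe are given.
Tnn P171014: actgaacagtacatatggatagaacacgtg
Postn P489192: gattaaagtagaatccaccaaagaacatca
Lum P167527: taagcatttgcacggttacttagtgaaact

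The arrays of the 3 groups were not alike, and this bears on every value below. A probe was counted as detected on an array where the scanner software marked it as well above background. Between 53.5% and 57.5% of probes were detected on the GFP arrays, 47.4% and 47.5% on the LT7 arrays, and 26.4% and 25.5% on the ST7 arrays. The signal at the 75th percentile of probes, to which each array was scaled, was 384 and 323 on the GFP arrays, 341 and 317 on those of LT7, and 16.3 and 17.1 on those of ST7. Scaling therefore lifted ST7 values, and the median of all probes came out 3.72 above GFP on the log2 scale in ST7 and 0.17 above in LT7. Of 10 fibroblast markers, all were detected on both arrays of GFP and of LT7, and 4 were detected on both arrays of ST7, with summed signals of 15060 to 16598 in ST7 against 323348 to 349285 in GFP and LT7. Of 12 epithelial markers, 5 were detected on both GFP arrays, 3 on both LT7 arrays and 6 on both ST7 arrays, with sums of 467 to 531, 342 to 442 and 2119 to 2271, and Cdh1, the defining one, was detected in no group on both arrays. None of 4 endothelial markers was detected on both arrays of any group, and 2, 2 and 0 of 5 leukocyte markers were in GFP, LT7 and ST7. Of 14 genes that nearly all cells use, 11 were detected on both ST7 arrays, and the signals of the 14 in ST7 were between 0.000189 and 1.38 times those in GFP before any scaling. The probe for Sirt7 itself was detected in GFP (3125 and 2480) and in LT7 (3633 and 2782) but on neither ST7 array (2.85 and 3.28). Whether that probe reads the SIRT7 transgene was not tested, so the library labels could not be checked on it, and what part these array differences play in the ST7 results was not tested. LT7 replicate 1 was scanned apart from the other 5 arrays, and its spike-in RNAs read 13.4 on the log2 scale against 9.26 to 9.55 elsewhere.

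**Figure D1:**
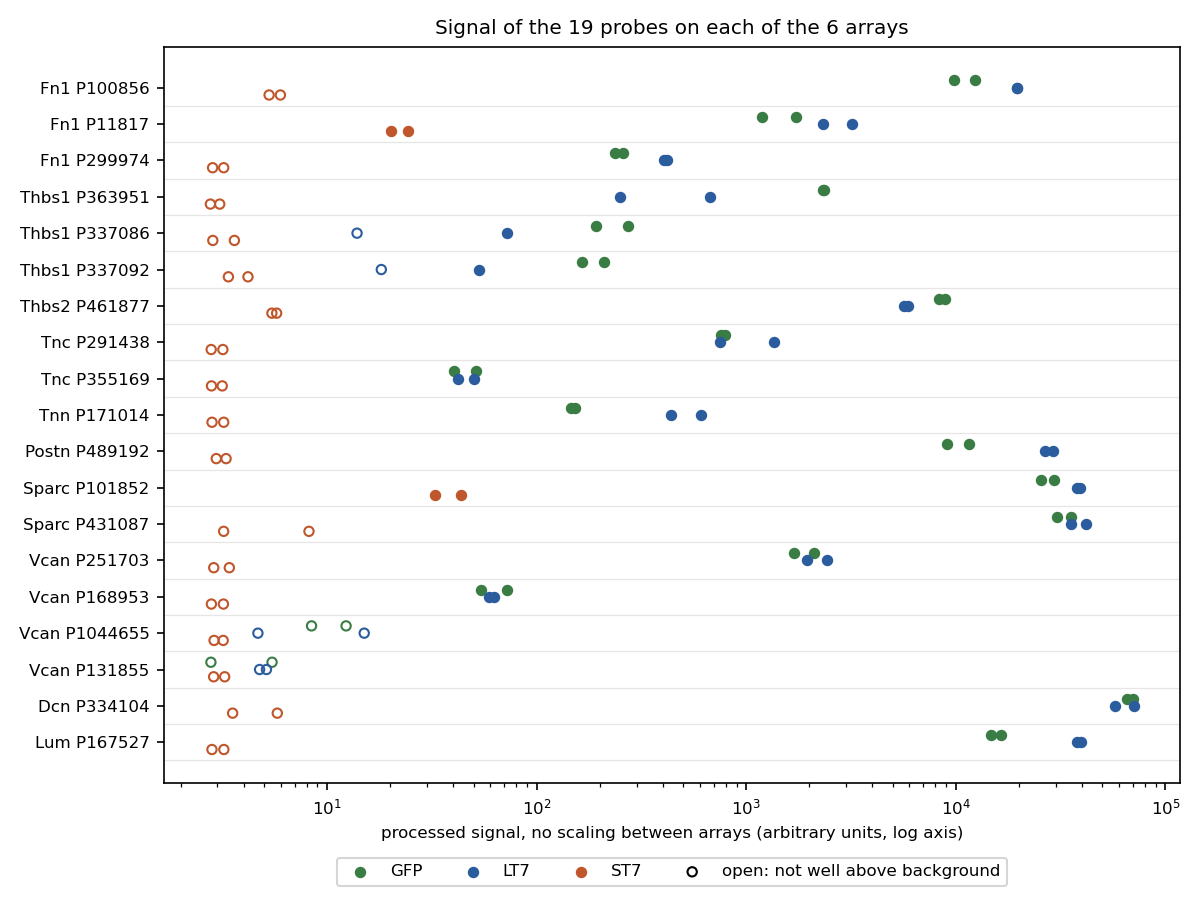
Processed signal of the 19 probes on each array, on a log axis in arbitrary units and before any scaling, with 2 points per group. Filled points were well above background and open points were not: 17 probes were detected on both GFP arrays and 2 on both ST7 arrays, and distances between different probes carry no meaning.

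In GFP cells all 10 genes were expressed. Of the 19 probes, 17 were detected on both GFP arrays, 15 and 17 on the 2 LT7 arrays, and 2 on each ST7 array, those 2 being Fn1 P11817 and Sparc P101852. The remaining 2 probes, Vcan P1044655 and P131855, were detected on no array and are given no fold change. The plot of signals by array shows the shape of the data: GFP and LT7 points lay close together for most probes, and ST7 points lay near the bottom of the scale.

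The LT7 comparison asks what SIRT7 overexpression was accompanied by in cells that kept the fibroblast shape. Lum, Postn and Tnn were 2.66-, 2.90- and 3.72-fold higher in LT7 than in GFP, and all 3 Thbs1 probes were lower, by 5.31-fold on the brightest. Fn1 was 1.78- to 2.04-fold higher on its 3 probes. Dcn, Vcan and Tnc differed by under 1.4-fold on every detected probe. No probe of the 10 genes passed limma's test at an adjusted p of 0.05, in an array-wide fit in which 0.176% of probes passed. At an unadjusted limma p under 0.05, 6 of the 19 were higher and 3 lower, against 22.9% and 4.38% of all probes. The study's fold rule sets a limit of 0.8 in each replicate and of 1 for both together, and was read here as log2 ratios to the GFP mean, with the signs turned for lower probes. By that rule 3 of 19 were higher (Lum, Postn, Tnn) and 3 were lower (the Thbs1 probes), against 2.89% and 3.02% of all probes. After scaling, the 2 GFP and 2 LT7 values did not overlap for 10 probes of 6 genes that were higher in LT7, the undetected Vcan P131855 among them, against 38.0% of all probes, and for 4 probes of 2 genes that were lower, against 15.0%. The median log2 change of the 19 probes was 0.33, beside 0.17 for all probes.

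Fibronectin, the main adhesive glycoprotein of fibroblast matrix, is read by a probe printed 8 times on each array. That probe, P100856, read 12385 and 9779 in GFP and 19653 and 19499 in LT7. Both LT7 values lay above both GFP values, and the 8 repeat spots within 1 of these arrays varied by an SD of 0.03 to 0.07 on the log2 scale. The log2 change was 0.93 with an SE of 0.19 (limma adjusted p = 0.102). Fn1 P11817 read 1720 and 1189 in GFP against 2333 and 3192 in LT7, and Fn1 P299974 read 258 and 237 against 417 and 405. Their log2 changes were 1.03 and 0.83, so 3 probes with different sequences gave similar values. None of the 3 reached the fold rule, since 1 replicate or the mean stayed short of it.

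Thrombospondin 1 binds CD47, CD36 and integrins, activates latent TGF-beta and inhibits the growth of blood vessels. Thbs1 P363951 read 2319 and 2349 in GFP and 250 and 674 in LT7. Both LT7 values lay far below both GFP values, but the LT7 replicates stood well apart from each other. The log2 change was -2.41 with an SE of 0.52 (limma adjusted p = 0.102). Thbs1 P337086 read 272 and 193 in GFP and 13.9 and 72.4 in LT7, and Thbs1 P337092 read 210 and 164 against 18.2 and 53.0. On both of these the LT7 replicate 1 value was not well above background, and the log2 changes were -2.76 and -2.48. LT7 replicate 1, the array scanned apart, gave the lower value on all 3 probes. With that array left out, which leaves only arrays of the common scan, the 3 changes were -1.64, -1.51 and -1.66. With LT7 replicate 2 left out, the change of P363951 was -3.17 with a limma adjusted p of 0.0449. The fit called P337086 and P337092 too, but the lone LT7 signal left for them was not well above background, so neither the size nor the call is a measurement. These fits assume that a lone LT7 array varies as the other groups do.

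Thrombospondin 2, a close relative that fibroblasts also secrete and that binds matrix metalloproteinase 2, was 1.38-fold lower. Its probe read 8864 and 8326 in GFP and 5926 and 5684 in LT7, with no overlap. The log2 change was -0.47 (95% interval -0.96 to 0.02; limma adjusted p = 0.202).

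Tenascin-N, also called tenascin-W, is found in developing bone and around tumours. Its probe read 152 and 146 in GFP and 439 and 610 in LT7. Both LT7 values were far above both GFP values, and the log2 change of 1.90 with an SE of 0.27 was the largest upward value among the 19 probes (limma adjusted p = 0.102). It was 2.18 within the common scan. Tenascin-C, the family member made at sites of repair, did not separate in the same way. Tnc P291438 read 759 and 796 in GFP and 1354 and 752 in LT7, so 1 LT7 array lay above GFP and the other did not. Tnc P355169 read 40.3 and 51.3 against 41.9 and 50.4. The 95% intervals of the 2 log2 changes ran from -0.32 to 1.27 and from -0.61 to 0.84.

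Periostin is a fasciclin-domain protein that binds collagen and tenascin-C and helps to crosslink collagen. Its probe read 11618 and 9110 in GFP and 29137 and 26732 in LT7. The replicates lay close together in both groups, and the log2 change was 1.54 with an SE of 0.19. This was the lowest adjusted p-value of the 19 probes, 0.0967 by limma. The value was 1.53 within the common scan. Postn passed limma when only probes well above background in at least 1 group were tested, with an adjusted p of 0.0491. It also passed with normexp background correction and with an intensity trend in limma, and under no other setting tried. The limma adjusted p was 0.104 with a term for replicate number and 0.317 with quantile normalization. Scaling on spike-in RNAs turned the change to -0.55. SPARC is a collagen-binding protein that counters cell spreading. Sparc P101852 read 29554 and 25598 in GFP and 39256 and 38029 in LT7, a log2 change of 0.59 without overlap. Sparc P431087 read 35577 and 30318 against 35500 and 41653, so these unscaled signals overlapped, while the scaled values, 6.54 and 6.55 in GFP and 6.70 and 7.04 in LT7 on the log2 scale, did not. The 95% intervals, -0.01 to 1.19 and -0.92 to 1.57, both included 0.

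Versican differed little. Vcan P251703 read 2113 and 1682 in GFP and 2442 and 1953 in LT7, and Vcan P168953 read 72.3 and 54.1 against 59.0 and 62.5. These unscaled signals overlapped on both probes. After scaling, Vcan P251703 stood at 2.46 and 2.38 in GFP and at 2.84 and 2.62 in LT7 on the log2 scale, without overlap, and Vcan P168953 still overlapped. The 95% intervals of the log2 changes were -0.21 to 0.84 and -0.47 to 0.58.

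Of the small leucine-rich proteoglycans among the 10 genes, Lum was measured below saturation on all arrays and Dcn was not. Lumican, a keratan sulfate proteoglycan known best from the cornea, read 16391 and 14652 in GFP and 39507 and 37662 in LT7. These are tight and well separated pairs, with a log2 change of 1.41, an SE of 0.19 and a limma adjusted p of 0.102. It was 1.43 within the common scan. Decorin, which binds collagen and TGF-beta, read 69825 and 65435 in GFP and 57526 and 70649 in LT7. The groups overlapped, and the log2 change was 0.01 (95% interval -0.83 to 0.86). The highest Dcn signal in each of these groups was saturated, so a Dcn level above the scanner's range would not show.

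**Figure D2:**
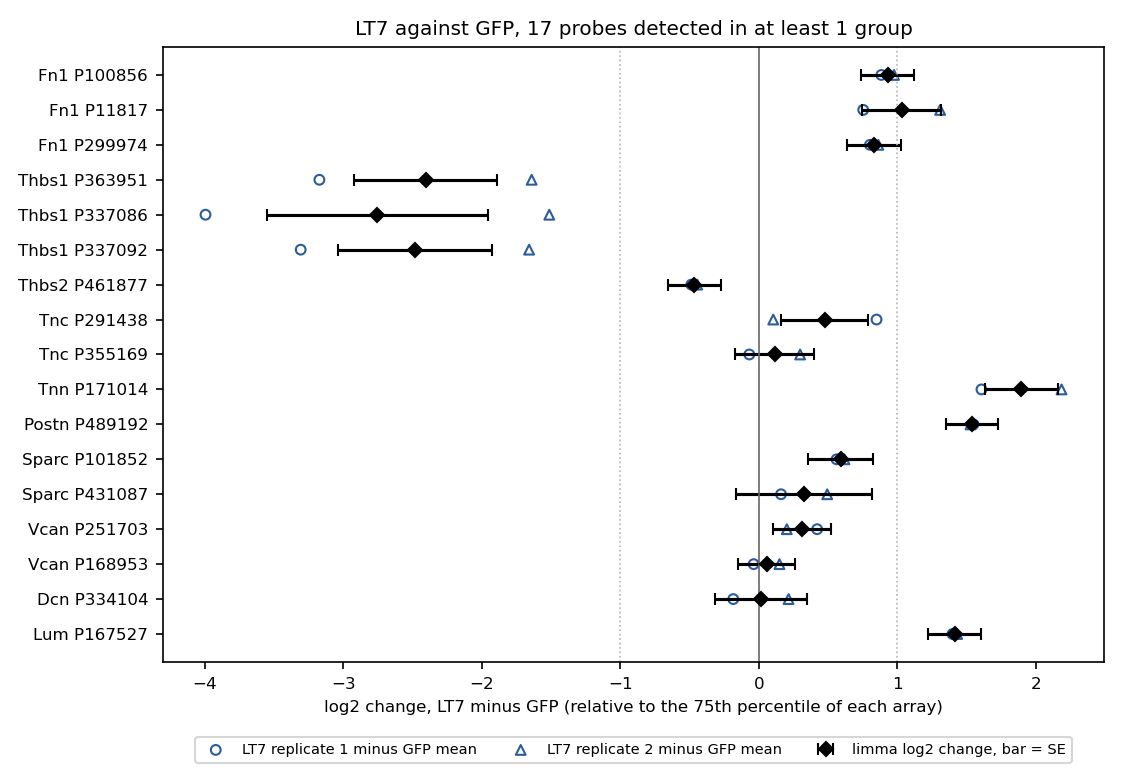
Log2 change in LT7 against GFP for the 17 detected probes, on values scaled to the 75th percentile; diamonds are the limma value with its SE, open symbols the 2 LT7 replicates against the GFP mean, and dotted lines mark a change of 1. The 3 Thbs1 probes sit between -2.76 and -2.41 with replicates far apart, and Tnn, Postn and Lum sit between 1.41 and 1.90.

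Several directions in LT7 depended on the scaling. The small changes of Dcn and Vcan P168953 turned to -0.084 and -0.044 without scaling, and that of Dcn to -0.30 with quantile normalization. Under scaling on spike-in RNAs the median of all probes moved to -1.92, and the changes of Postn, Lum and Tnn became -0.55, -0.67 and -0.19. Those values average a pair of unlike arrays. Scaled that way, Postn stood at -2.45 in LT7 replicate 1 and at 1.35 in LT7 replicate 2 relative to GFP, Lum at -2.60 and 1.26, and Tnn at -2.39 and 2.01. Thbs1 P363951 stood at -7.17 and -1.82, negative in both. The fold rule then counted 0 probes higher and 4 lower, the Thbs1 probes and the undetected Vcan P1044655. Without any scaling it again counted 3 higher and 3 lower.

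**Figure D3:**
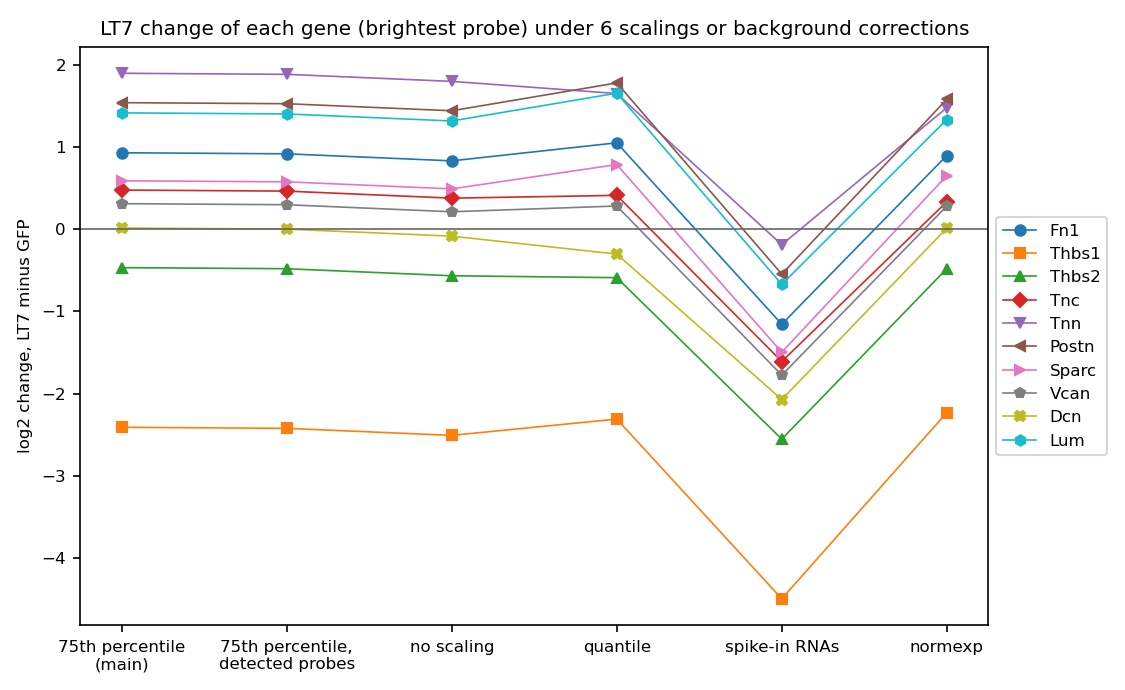
Log2 change in LT7 against GFP of 1 probe per gene, the one with the highest mean log2 signal over the 6 arrays, under 6 ways of scaling or background correction. Thbs1 is the lowest in all 6, Postn, Lum and Tnn are the top 3 in all 6, and spike-in scaling moves every gene down.

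The other small leucine-rich proteoglycans were measured with the same rule of 1 probe per gene. In the mouse annotation (RefSeq, GRCm38.p6) Dcn, Lum, Kera and Epyc follow each other on chromosome 10 with no other protein-coding gene between them. Kera, for the corneal proteoglycan keratocan, read 12.2 and 6.94 in GFP, not well above background, and 32.3 and 56.0 in LT7, at least 3.38-fold higher. Epyc, for the cartilage proteoglycan epiphycan, read 31.3 and 11.3 in GFP and 103 and 92.5 in LT7, 5.57-fold higher on these values, of which that of GFP replicate 2 was not well above background. Lum, Kera and Epyc thus lay higher in LT7, and Dcn at the end of the row, partly saturated, had a log2 change of 0.01. Further members of the family went either way. Ogn read 805 and 550 in GFP and 2350 and 2120 in LT7, a log2 change of 1.84, and Aspn had one of 1.46. Prelp read 7108 and 5148 against 1316 and 1081, a log2 change of -2.24 (limma adjusted p = 0.0509). Of the 12 relatives outside the 10 genes, 0 passed limma, and by the fold rule 4 were higher (Ogn, Kera, Epyc, Aspn) and 1 was lower (Prelp), against 2.89% and 3.02% of all probes. At an unadjusted limma p under 0.05, 6 were higher and 1 was lower, against 22.9% and 4.38%.

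**Figure D4:**
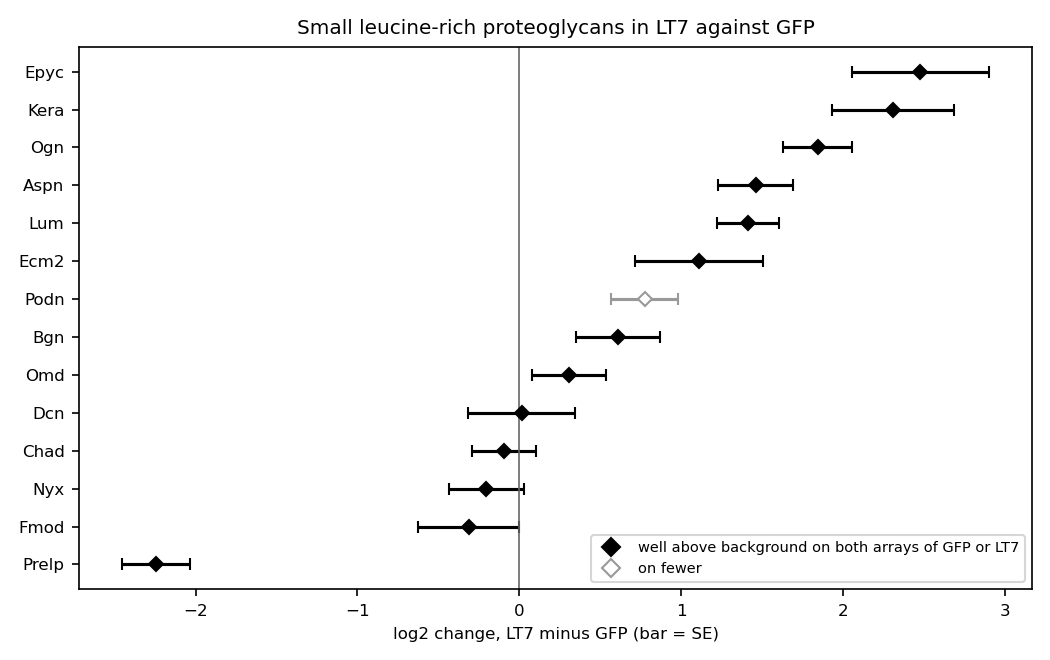
Log2 change in LT7 against GFP with its SE for 14 small leucine-rich proteoglycans, Dcn and Lum included, 1 probe per gene. Filled symbols were well above background on both arrays of GFP or LT7 or both; Epyc and Kera lie at the top, Prelp at -2.24 lies at the bottom and Dcn lies at 0.01.

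Around these genes, 91 related matrix genes (other thrombospondins, tenascins and proteoglycans, the SPARC, periostin and CCN families, fibrillins and fibulins, other matrix glycoproteins, and receptors) were counted on 1 probe each. In LT7 their median log2 change was 0.46, against 0.17 for all probes, with 60 above 0 and 31 below. By limma 1 was higher and 1 lower, where 0.176% of all probes were called, and by the fold rule 14 were higher and 5 lower, against 2.89% and 3.02%. The one that rose was Itga9, the integrin subunit alpha 9, which pairs with beta 1 and binds tenascin-C: 39.7 and 32.7 in GFP, 185 and 222 in LT7, 6.03-fold (limma adjusted p = 0.0446). The one that fell was Srpx2, a secreted sushi-repeat protein, at 658 and 552 in GFP and 38.9 and 48.8 in LT7, 12.9-fold lower (limma adjusted p = 0.0242). Neither call held with a term for replicate number (the replicate block), where 0 probes of the whole array passed in LT7 against GFP. Fbln1, for the elastic fibre protein fibulin 1, read 106 and 65.4 against 5.04 and 11.2, at least 3.68-fold lower, and Npnt, for nephronectin, was at least 1.42-fold lower. Sparcl1, the nearest relative of Sparc, was singled out after its values were seen: it read 2917 and 2182 in GFP and 11829 and 8471 in LT7, a log2 change of 2.09 with an SE of 0.31 (limma adjusted p = 0.102).

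The ST7 comparison asks how the same genes stood in the SIRT7 cells that had changed shape. Transcripts of all 10 genes, most of them bright in GFP, were at or near background on both ST7 arrays. On 8 of 10 genes no probe was detected in ST7, and on Fn1 and Sparc 1 probe each was. By limma 13 of 19 probes, of all 10 genes, were lower in ST7 than in GFP, in a fit that called 19.8% of all probes lower. Except on Fn1 P11817 and Sparc P101852, these calls rest on ST7 signals that were not well above background. With normexp background correction Tnn came out higher, at 0.61 with a limma adjusted p of 0.0223, and Fn1 P299974 was no longer called. With normexp 11 of 19 probes were called lower and 5 higher, in a fit that called 57684 of all 61307 probes in 1 direction or the other. Both undetected Vcan probes were called higher, as 70.7% of all probes were, on signals before scaling of 2.88 to 3.25 in ST7 and 2.79 to 12.3 in GFP. The median log2 change of the 19 probes was -3.62, against 3.72 for all probes. Undetected probes are part of these all-probe figures. The array-wide median was 0.71 when only probes well above background in a group were fitted, and -0.68 over all probes without scaling. In bulk RNA, fewer cells that express a gene and less of it in each cell cannot be told apart.

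Dcn, at 69825 and 65435 in GFP, read 5.79 and 3.55 in ST7. Not 1 of its ST7 values was well above background, so the fold is a bound: at least 218-fold lower relative to the 75th percentile. The bound sets the GFP mean against the higher of the probe's own value and the lowest detected signal on each ST7 array. Lum read 2.82 and 3.22, at least 49.9-fold lower, and Postn read 2.96 and 3.30, at least 33.1-fold lower. Thbs2 read 5.46 and 5.75, at least 27.7-fold lower. Sparc P431087 read 8.20 and 3.21, at least 106-fold lower. Bounds for the dimmer genes were smaller, at least 7.51-fold for Thbs1 P363951, 6.07-fold for Vcan P251703 and 2.50-fold for Tnc P291438. All of these had limma adjusted p-values between 1.68e-05 and 0.000235. Tnn, the second Tnc and Vcan probes, Fn1 P299974 and the other 2 Thbs1 probes read between 2.81 and 4.20 in ST7, and the detection floor there allows no fold for them.

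The pair of probes still detected in ST7 gave measured values. Sparc P101852 read 43.4 and 32.9, a log2 change of -5.11 with an SE of 0.24, 34.5-fold lower relative to the 75th percentile and 723-fold lower in signal before scaling (limma adjusted p = 1.68e-05). Fn1 P11817 read 24.3 and 20.2, 3.06-fold lower after scaling and 65.4-fold lower before it (limma adjusted p = 0.00285). The lowest detected signals on the ST7 arrays were 13.9 and 15.5, so Fn1 P11817 lay close to the detection floor. The 75th percentile used for scaling, 16.3 and 17.1 there, lay close to it as well. The 3 fibronectin probes did not behave alike here. The 8 spots of Fn1 P100856, which in GFP gave 12385 and 9779, read 5.29 and 5.99 on average in ST7 with 0 of 8 detected, at least 35.4-fold lower. The lower bound for that probe thus exceeded the measured fold of P11817, and the sequences of both are printed above.

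The SIRT7 lines were also compared with each other, a comparison that shares its ST7 arrays with the one against GFP. Limma called 13 of 19 probes, of all 10 genes, lower in ST7 than in LT7 (19.7% of all probes), and 2 higher (71.0%). The median log2 change was -3.12, against 3.59 for all probes. The array-wide median was 0.85 when only probes well above background in a group were fitted, and -0.71 over all probes without scaling. The bounds on how far ST7 lay below LT7 were 96.2-fold for Postn, 133-fold for Lum and 220-fold for Dcn. For Thbs1 P363951, with 250 and 674 in LT7, the bound was 1.42-fold. Tnn, which had no bound against GFP, had one of 1.78-fold against LT7.

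Among the 91 related matrix genes, 61 were detected on both GFP arrays, 59 on both LT7 arrays and 14 on both ST7 arrays. By limma 41 were higher and 45 lower in ST7 than in GFP, where 70.7% and 19.8% of all probes were, but for 37 genes the detection floor allows no fold in either direction. Those with the lowest fitted change, whose order has no detected ST7 signal behind it, were Spp1, the integrin-binding glycoprotein osteopontin, at 64265 and 62399 in GFP and 8.99 and 3.13 in ST7 (at least 204-fold lower), Ltbp2 (at least 106-fold) and Igfbp7 (at least 56.0-fold). A few matrix genes went the other way. Mfap2, for a microfibril glycoprotein, read 1851 and 1862 on the ST7 arrays, against 37.7 and 44.5 in LT7 and 12.6 and 10.5 in GFP. Its signal thus stood above GFP in both SIRT7 lines, and in ST7 even before scaling. Spock1 and Spock2, proteoglycans of the SPARC family, read 149 and 163 and 49.9 and 19.6 in ST7, where Spock1 had not been detected in GFP at 7.65 and 10.5. Their log2 changes against GFP after scaling were 8.52 and 5.40. These include the lift from scaling, which moved the array-wide median from -0.68 to 3.72. For Spock2, whose ST7 replicates lay far apart, no rise before scaling is claimed. Against LT7 the genes named by the lowest fitted change were Spp1, Efemp1 and Nid1, at least 208-, 93.6- and 135-fold lower, an order that rests on undetected ST7 signals. Those named by the highest were again Mfap2, Spock1 and Spock2.

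Likeness of pattern was taken as Pearson's r between log2 values over the 6 arrays, among 10232 other genes. These were named genes with a RefSeq mRNA whose brightest probe was detected on both GFP and both LT7 arrays. Detection in ST7 was not required, so the set favours genes that were lower there. The nearest to Fn1 were Amigo2, Cx3cl1 and Htra1, and the nearest to Postn were Nmi, Cdon and Kdelr3. All 6 points share the same 3 groups, in which many genes lay far lower on the ST7 arrays, and 2232 genes had an r over 0.99 with Fn1 and 1164 with Postn. Thbs1 had only 8, led by Sirt1, Fam158a and Grpr with an r of 0.996, 0.996 and 0.995. Sirt1, another sirtuin, went from 384 and 341 in GFP to 129 and 227 in LT7 and to 2.93 and 3.25 on the ST7 arrays.

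Promoter sequences from RefSeq (GRCm38.p6), running from 250 bases before to 50 after the start, were matched for 6 of the 10 genes, Tnn, Postn, Tnc, Sparc, Vcan and Thbs2, with 8 entries in all. A Postn entry and the Tnn entry are shown because both genes were higher in LT7 by the fold rule. Capitals mark the motifs searched on both strands: the TATA box (TATAAA), the CCAAT box (CCAAT), the GC box (GGGCGG), the AP-1 site (TGANTCA) and the cyclic AMP response element (TGACGTCA). The Postn entry at chr3:54360857-54361156, on the plus strand, holds TATAAA, and the Tnn entry at chr1:160153526-160153825, on the minus strand, holds CCAAT on its other strand. Postn has another entry, at chr3:54359017-54359316 and not printed, which holds CCAAT on its other strand and no TATAAA.
Postn promoter: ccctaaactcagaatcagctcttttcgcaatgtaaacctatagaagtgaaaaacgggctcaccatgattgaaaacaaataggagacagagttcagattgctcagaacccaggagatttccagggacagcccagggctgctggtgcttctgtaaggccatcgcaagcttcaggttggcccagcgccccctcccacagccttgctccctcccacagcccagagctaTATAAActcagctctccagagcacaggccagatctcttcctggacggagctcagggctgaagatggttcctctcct
Tnn promoter: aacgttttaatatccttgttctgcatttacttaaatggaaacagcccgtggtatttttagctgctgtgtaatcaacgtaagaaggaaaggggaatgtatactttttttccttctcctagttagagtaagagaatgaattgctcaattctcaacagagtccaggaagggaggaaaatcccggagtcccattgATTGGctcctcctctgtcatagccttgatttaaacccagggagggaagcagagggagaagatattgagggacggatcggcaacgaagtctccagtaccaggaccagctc
Of the 8 entries, 4 hold TATAAA and 4 hold CCAAT, against 13.6% and 37.4% of all 32851 promoter entries. GGGCGG is in 3 of the 8, against 35.7%, and neither TGANTCA nor TGACGTCA is in any, against 7.81% and 1.79%. The entries with TATAAA are of Postn, Thbs2 and Tnc, and those with GGGCGG are of Tnc and Vcan. The Tnc entries, at chr4:64046966-64047265 and chr4:64046887-64047186, overlap and both hold TATAAA and GGGCGG, so these counts of entries are not counts of genes. These matches describe the letters in the window only, and Thbs2, which was not higher in LT7, also holds TATAAA and CCAAT.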

How the data were processed

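RNA from 6 cultures was hybridised in 1 colour to Agilent mouse arrays. Per the file headers, the deposited scanner files were made with Feature Extraction 10.5.1.1 and hold background-subtracted processed signals, a linear intensity per spot. The deposited value table holds, per the authors, log2 values shifted by each array's 75th percentile. It was used only as an alternative. Values computed here with outlier spots kept, unlike the main values, matched it within 0.01 in all but 3 to 11 probes per array. The other deposited columns used, such as flags, probe names and sequences, are of other kinds.

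Spots flagged as outliers were dropped, repeat spots averaged, and log2 signal minus the array's 75th percentile was fitted over all 6 arrays with limma 3.58.1 in R 4.3.3. P-values were Benjamini-Hochberg adjusted over all 61307 probes, with calls under 0.05. The script was tested on simulated data. The 2 arrays per group limit precision. A probe counted as detected where most of its spots were well above background. All probes of the 10 genes are given. Related genes were named if they passed limma in LT7, or were the 3 highest and 3 lowest per contrast among those detected in the higher group. The 3 most like Fn1, Postn and Thbs1 were also named. Members, lists and tests were chosen with earlier results of these data known. The alternatives covered scaling, normexp, dim-probe filter, outlier spots, value source, variance trend, samples fitted, replicates left out and the replicate block.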

Additional observations from a re-analysis of the deposited data

How the results depend on the processing

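With 2 arrays per group, one passage or scan can set a value, and at ST7 signals near background only bounds could be given. In LT7 against GFP, limma called 0 of the 19 probes in the main setting. It called 4 with normexp (all higher: Fn1, Tnn, Postn, Lum), where 438 of all probes passed, against 108 in the main setting. With only probes detected in a group it called 1 (Postn), where 264 of the 33296 probes fitted passed. An intensity trend gave 7 (5 higher, 2 lower), where 10593 of all probes passed. Leaving out single arrays gave 0 to 3, the 3 being the Thbs1 probes without LT7 replicate 2, where the LT7 signal left for P337086 and P337092 was not well above background. The other alternatives gave 0. Against GFP and against LT7, 15 probes were called in ST7 and 15 to 17 when single arrays were left out. Without scaling the split in ST7 against GFP was 17 lower and 0 higher, in place of 13 and 2, as it was with quantile normalization. With normexp it was 11 lower and 5 higher, and in ST7 against LT7 12 and 6. Over the whole array, limma called 55534 probes in either direction in ST7 against GFP in the main setting. That count was 28195 without scaling, 35276 with quantile normalization and 57684 with normexp. In ST7 against LT7 it was 55574 in the main setting and 57771 with normexp. The fold rule, recomputed under these settings after seeing the data, counted 6 or 7 probes in LT7 under all of them but spike-in scaling, which gave 4.

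Replicate numbers were not used to pair the arrays in the main fit. The differences between replicates correlated at 0.09 between GFP and LT7, 0.33 between GFP and ST7 and -0.03 between LT7 and ST7. A replicate block called 0 of the 19 probes in LT7, 15 in ST7 against GFP and 15 in ST7 against LT7, and so changed none of these counts. Over the whole array it called 0 probes in LT7 against GFP, in place of 108.

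Some log2 changes took the other sign. In LT7, spike-in scaling gave -1.15, -1.05 and -1.25 for the 3 Fn1 probes, -1.61 and -1.97 for Tnc, -0.19 for Tnn, -0.55 for Postn, -1.50 and -1.76 for Sparc, -1.77 and -2.03 for Vcan, -2.07 for Dcn and -0.67 for Lum. Without scaling, Vcan P168953 was at -0.044 and Dcn at -0.084, and with quantile normalization Dcn was at -0.30. With single arrays left out, Tnc P355169 ran from -0.18 to 0.41, Vcan P168953 from -0.039 to 0.15 and Dcn from -0.19 to 0.21. In ST7 against GFP, normexp gave 0.15 and 0.47 for Thbs1 P337086 and P337092 and 0.61 for Tnn. Tnc P355169 was at -1.47 with the percentile over detected probes, -3.93 without scaling, -2.67 with quantile normalization and -3.75 with spike-in scaling, and Vcan P168953 at -1.92, -4.38, -3.06 and -4.20. Vcan P168953 was also at -0.0015 in the deposited log2 values, and between -0.070 and 0.10 with single arrays left out. In ST7 against LT7, in the same order of settings, Thbs1 P337086 was at -0.93, -3.30, -1.65 and -1.14, Thbs1 P337092 at -0.67, -3.04, -0.82 and -0.87, and Tnc P355169 at -1.57, -3.95, -2.86 and -1.78. Thbs1 P337086 ran from -0.25 without LT7 replicate 1 to 2.24 without LT7 replicate 2. Vcan P168953 was at 1.33 with normexp and ran from -0.13 to 0.055 with single arrays left out. The cause was not tested.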
